A study of Mus musculus with 12 samples.

Results

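The genes described are those of the main apolipoproteins, the protein components of plasma lipoproteins, and of the microsomal triglyceride transfer protein that loads lipid onto the nascent particle. They were taken from the liver transcriptome by gene symbol. No cut on expression values was used, but the genes were chosen with earlier results of these data known. They number 10 of the 23849 symbols in the expression table: Apoa1, Apoa2, Apoa4, Apoa5, Apob, Apoc1, Apoc2, Apoc3, Apoe and Mttp. Of these, 9 had a line of their own, while Apoc2 shared a single line with Apoc4 and the Apoc4-Apoc2 readthrough, whose reads cannot be told apart here. All 10 passed the filter of a mean of at least 1 FPKM (fragments scaled to transcript length and library size), among 9806 genes tested.

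The livers came from male C57BL/6J mice, given as 8-week-old, which all ate a high-fat diet with 60% of its energy from fat for 6 weeks. During the last 2 weeks the mice received, once a day at ZT11 by gavage, either 200 µl of Libramed (Policaptil Gel Retard, a fibre-based product that acts in the gut) at 20 mg/ml or the drinking water used as vehicle (labelled Cntrl). ZT, zeitgeber time, counts hours from lights on. Livers were collected at ZT0 or ZT12 from 3 mice per treatment and time, 12 in all. No group on normal chow was analysed here, so every value describes an obese-diet liver, and time of day cannot be told apart from the time since gavage and feeding.

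Lipoproteins carry triglyceride and cholesterol through the blood. In the liver cell, lipid is added to apolipoprotein B by the transfer protein encoded by Mttp, and the particle leaves the cell as very low density lipoprotein, while apolipoproteins A-I and A-II form high density lipoprotein. The smaller exchangeable apolipoproteins move between particles and set their fate: those of Apoc2 and Apoa5 promote triglyceride hydrolysis by lipoprotein lipase, those of Apoc1 and Apoc3 slow it or slow uptake, and that of Apoe is the ligand by which remnants enter the liver.

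Most of the genes lie in 2 clusters. On chromosome 9, Apoa1 (46228580 to 46230466), Apoc3 (46232933 to 46235636, opposite strand), Apoa4 (46240696 to 46243459) and Apoa5 (46268633 to 46271919) occupy 43340 bp of the mm10 genome in the GENCODE annotation. On chromosome 7, Apoc2 (19671579 to 19677941), Apoc4, Apoc1 (19689481 to 19692660) and Apoe (19696109 to 19699188) occupy 27610 bp. Apoa2 (chromosome 1, 171225054 to 171226379), Apob (chromosome 12, 7977648 to 8016835) and Mttp (chromosome 3, 138089854 to 138144968) stand alone. Genes annotated on the opposite strand overlap Apoa4 (Gm10680 and Gm47528), Apoa5 (Gm47544) and Mttp (Gm43691 and Trmt10a). Whether the libraries or the counting kept strand is not settled by the sources used here, so reads of such pairs may not be told apart.

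RefSeq promoter sequences of build GRCm38.p6 were at hand for 8 of the genes, and not for Apoc1 and Apoc3. Printed are those of Apoa4 and Apoa5, which passed for time of day in vehicle, and of Apob and Apoa1, whose treatment groups did not overlap at ZT12. Each runs 5′ to 3′ and begins 250 bases before the RefSeq start site, with bases inside the annotated GENCODE gene left off. Capitals mark CACGTG, the E-box that clock transcription factors can bind, and TATAAA, the core of the TATA box.
Apob (chr12:7977427-7977647, + strand): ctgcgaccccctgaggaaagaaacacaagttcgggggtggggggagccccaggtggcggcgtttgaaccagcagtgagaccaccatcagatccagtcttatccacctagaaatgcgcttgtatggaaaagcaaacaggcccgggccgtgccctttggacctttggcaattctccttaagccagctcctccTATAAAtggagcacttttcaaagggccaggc
Apoa1 (chr9:46228380-46228579, + strand): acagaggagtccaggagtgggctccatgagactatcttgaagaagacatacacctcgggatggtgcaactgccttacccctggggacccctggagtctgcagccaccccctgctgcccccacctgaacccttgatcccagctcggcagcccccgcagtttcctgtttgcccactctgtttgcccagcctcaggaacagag
Apoa4 (chr9:46240594-46240695, + strand): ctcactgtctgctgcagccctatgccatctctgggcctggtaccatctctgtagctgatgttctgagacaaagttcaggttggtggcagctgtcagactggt
Apoa5 (chr9:46268358-46268607, + strand): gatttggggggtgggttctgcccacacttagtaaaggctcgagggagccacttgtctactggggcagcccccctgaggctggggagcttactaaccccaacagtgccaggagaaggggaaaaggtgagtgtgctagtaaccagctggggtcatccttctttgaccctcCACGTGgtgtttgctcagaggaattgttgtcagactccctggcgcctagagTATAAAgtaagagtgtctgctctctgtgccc

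The 250 bases before each start site were searched on both strands for the E-box CACGTG, the TATA box core TATAAA, the nuclear receptor half-site AGGTCA, the D-box TTANGTAA and the DR1 motif, a direct repeat of the half-site that contains it. Among the 8 genes with a promoter, CACGTG was present only in that of Apoa5, 82 bases before the first and 107 before the second RefSeq start site. It was present in 6.02% of the 32851 promoter windows of the genome. Such shares are by window, whereas a gene was counted if any of its windows matched, and Apoa2, Apoa5 and Apoe had several. TATAAA was found for 4 of the 8 and in 12.4% of all windows. It lay 31 bases before the first start site of Apoa5 (56 before the second), 60 before that of Apob and 212 before the first of Apoa2, and it occurred on both strands, 96 and 100 bases before the second start site of Apoe. None of the motifs was found for Apoa1, Apoa4 or Mttp. Of the 250 bases searched, 148 for Apoa4 and 50 for Apoa1 lay inside the GENCODE gene, so RefSeq and GENCODE place these starts differently. AGGTCA was found for Apoc2 and for the second start site of Apoa2, and in 14% of all windows. No D-box (2.06%) or exact DR1 (0.0335%) was found for any of the 8. Only exact letters were searched, and an exact DR1 is rare, so its absence says nothing about variant forms. A match describes the letters alone and shows no binding.

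The genes covered a wide range of levels. Ranked by mean FPKM over the 12 livers, in a table that lists albumin at 0, the first 4 places were taken by Apoe, Apoc1, Apoa2 and Apoa1. Their means were 30211 ± 3653, 28412 ± 3627, 28092 ± 2895 and 24802 ± 3717 FPKM (SD, n = 12), and the first 3 differed from each other by less than 1 SD. Apoa1 lay below Apoa2 by more than the SD of Apoa2 and by less than its own. Apoc3 followed at 9173 ± 1404 FPKM, the line of Apoc2 at 3722 ± 358 and Apoa5 at 740 ± 203. Apoa4 stood at 474 ± 151 FPKM (place 198), Apob at 268 ± 30.6 (place 352) and Mttp at 65.1 ± 5.98 (place 1159). The single livers of Apoa4 (212 to 655 FPKM) overlapped those of both Apoa5 (501 to 1033) and Apob (214 to 329). FPKM is a level per transcript length, so the same FPKM stands for far more reads of Apob, with a longest transcript of 13934 bases, than of Apoc1, with 532.

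**Figure D1:**
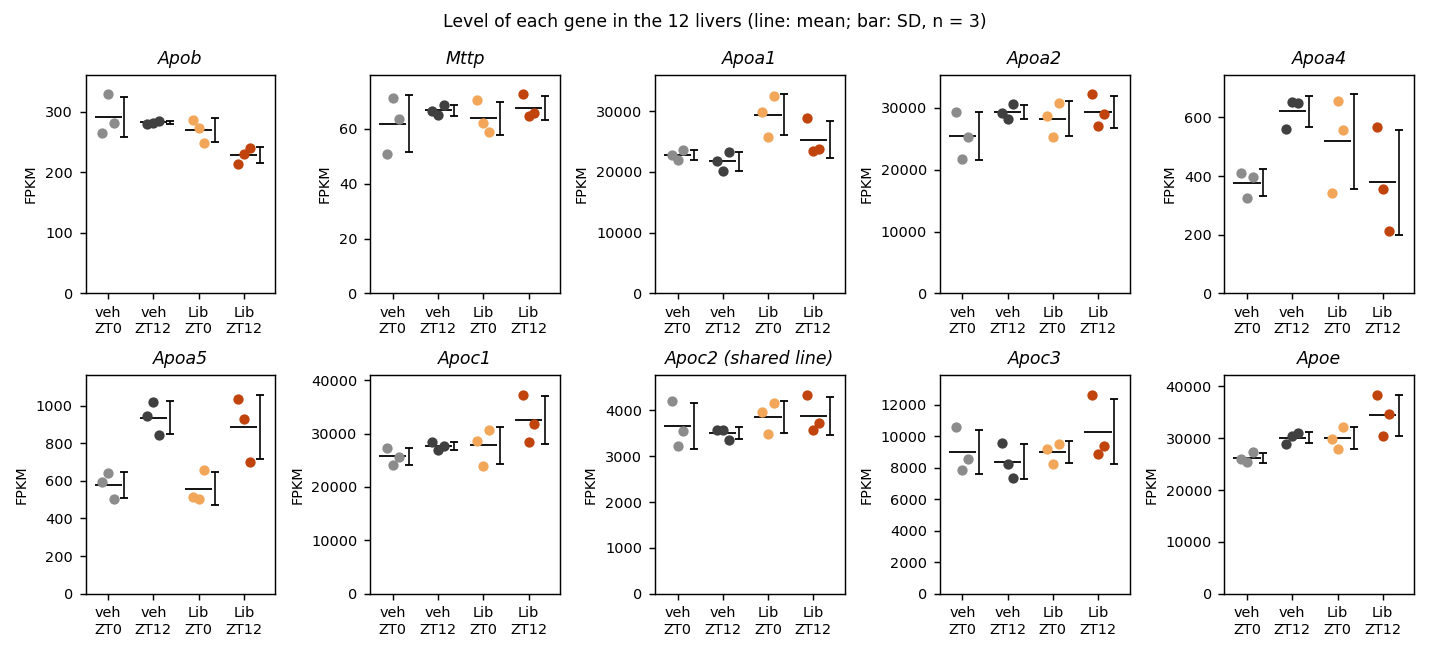
FPKM of each gene (vertical axis, from 0) in the 4 groups, with 1 point per mouse, a line at the mean and a bar of 1 SD (n = 3); veh is vehicle and Lib is Libramed. Apoa5 was higher at ZT12 in both treatments without overlap, Apoa4 was so in vehicle and overlapped in Libramed, and Apob was lowest in the 3 Libramed livers at ZT12.

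Together the 10 genes held 16.0 to 17.8% of the summed FPKM in the vehicle livers at ZT0 and 18.3 to 20.3% in the Libramed livers at ZT0, ranges that did not overlap. At ZT12 they held 17.1 to 17.8% with vehicle and 17.2 to 20.5% with Libramed, ranges that did. Since the sum is dominated by 4 genes, this share follows Apoe, Apoc1, Apoa2 and Apoa1. In the liver of Libramed ZT12 replicate 1, 7 of the 10 genes were at their highest of all 12 livers and Apob was at its lowest. It was not the highest for Apoa1, Apoa4 or Apob.

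**Figure D2:**
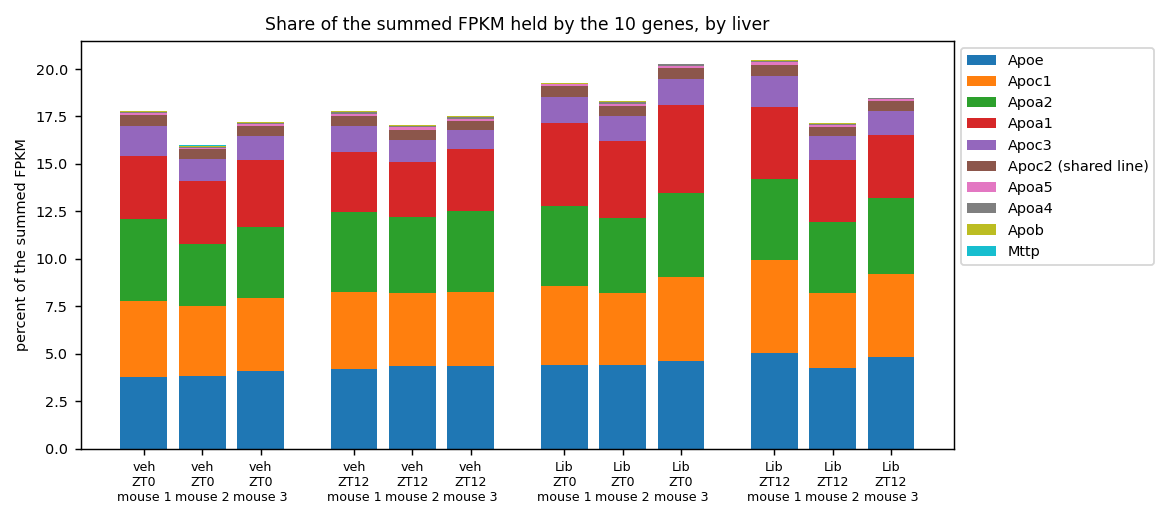
Stacked bars give the percent of the summed FPKM (vertical axis, from 0) that each of the 10 genes held in each of the 12 livers. Apoe, Apoc1, Apoa2 and Apoa1 fill most of every bar, and the Libramed livers at ZT0 (18.3 to 20.3%) stand above the vehicle livers at ZT0 (16.0 to 17.8%).

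The time-of-day comparison asked which genes differed between ZT12 and ZT0 under each treatment. In vehicle-treated mice 2 of the 10 rose, Apoa4 and Apoa5, and none fell (limma, Benjamini-Hochberg adjusted p under 0.05), where 10.4% of all genes tested passed. The same 2 had an unadjusted p under 0.05, against 27.4% of all genes, and 3 of the 10 did not overlap between times, against 33.2%. In Libramed-treated mice none of the 10 passed the adjusted threshold, against 12.4% of all genes, 2 (Apoa5 and Apob) had an unadjusted p under 0.05, against 29.2%, and 2 did not overlap, against 34.9%. With both treatments in a single fit, 1 of the 10 rose (Apoa5) against 29.7% of genes called, and 2 (Apoa5 and Apoe) had an unadjusted p under 0.05 against 41%. The median log2 difference of the 10 genes was 0.11 in vehicle and 0.07 in Libramed, beside 0.01 over all genes in both, and in vehicle it turned to -0.01 with quantile normalisation. With 10 genes, 1 call more or fewer moves their share by about as much as the background share in vehicle.

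The treatment comparison asked whether Libramed altered hepatic expression at each time. None of the 10 genes passed the adjusted threshold at ZT0, at ZT12 or over both times (limma), and none did under any alternative or with the regularised Cyber-T style test. Over all genes, 0% passed at ZT0, 0% at ZT12 and 0.0204% over both times. An unadjusted p under 0.05 was reached by 1 gene at ZT0 (Apoa1, against 9.23% of all genes), by 2 at ZT12 (Apoa4 and Apob, against 6.74%) and by 3 over both times (Apoa1, Apob and Apoe, against 10.1%). The groups did not overlap for 2 genes at ZT0 (Apoa1 and Apoe, against 15.1% of all genes) and for 2 at ZT12 (Apoa1 and Apob, against 13.1%). The median log2 difference of the 10 at ZT0 was 0.10, with 8 genes above 0, beside -0.02 over all genes. The median at ZT12 was 0.08, with 6 genes above 0, beside -0.01. The direction at ZT12 turned with quantile normalisation, which left 4 of 10 higher and a median of -0.01.

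**Figure D3:**
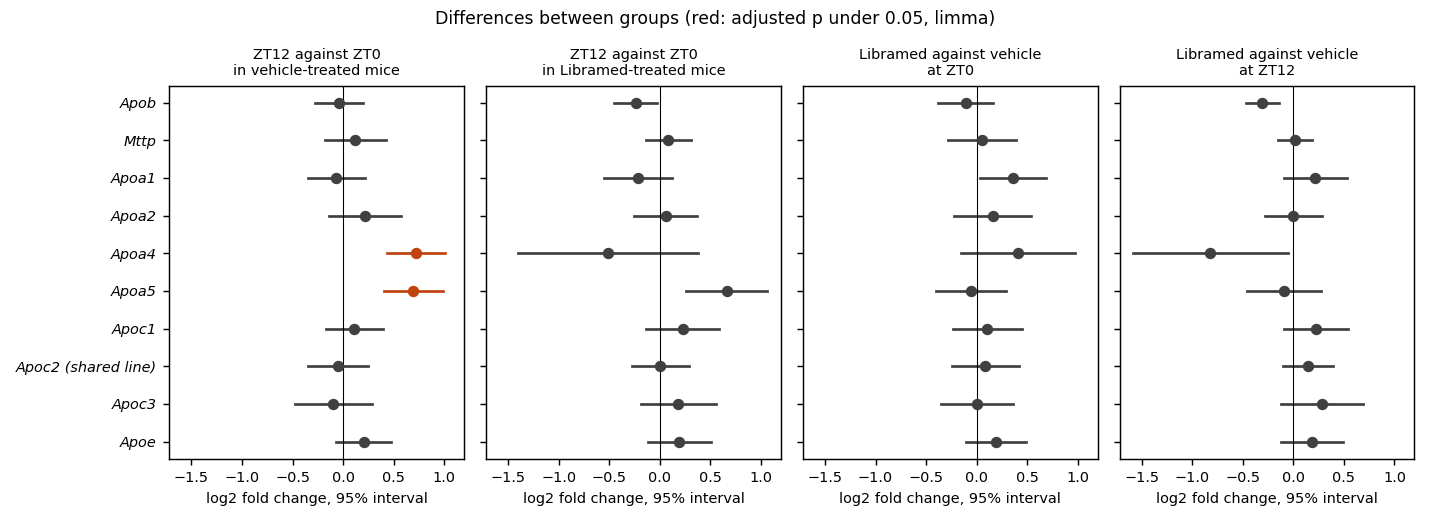
Log2 fold change (horizontal axis, on the scale of log2(FPKM + 1)) of each gene with its 95% interval from limma, in the 4 comparisons between pairs of groups; red marks an adjusted p under 0.05. Apoa4 and Apoa5 in vehicle are the only red points, and Apoa4 has the widest intervals wherever Libramed livers enter.

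Apob, whose product is the structural protein of very low density and low density lipoprotein, stood at 265, 329 and 282 FPKM in the vehicle livers at ZT0 and at 287, 274 and 249 in the Libramed livers at ZT0. At ZT12 it stood at 280, 282 and 285 FPKM with vehicle and at 214, 230 and 241 with Libramed. Every Libramed liver at ZT12 was thus below every vehicle liver of either time, while the ZT0 groups overlapped. Libramed against vehicle at ZT12 gave a log2 fold change of -0.31 (SE 0.0699, 0.809-fold, limma adjusted p = 0.729), with place 41 of 9806 by limma, and an exact permutation p = 0.1, the smallest that 3 against 3 allows. Over both times the value was -0.21 (SE 0.0691, limma adjusted p = 0.377), and an exact two-sided permutation test within times gave an unadjusted p = 0.025. Without Libramed ZT12 replicate 1, where Apob was lowest, it was -0.18. Within Libramed, ZT12 was 0.848-fold of ZT0 (log2 -0.24, SE 0.09, limma adjusted p = 0.132), without overlap. The interaction, -0.20 (adjusted p = 0.834), did not pass.

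Mttp, whose product transfers lipid to apolipoprotein B, stood between 50.8 and 72.6 FPKM in all 12 livers and overlapped in each comparison. Its group means ran from 61.9 ± 10.4 FPKM in vehicle at ZT0 to 67.7 ± 4.28 in Libramed at ZT12 (SD, n = 3). Libramed against vehicle over both times was 1.03-fold, with a 95% interval of 0.910 to 1.15. At ZT12, where Apob had its lowest values, the interval for Mttp was 0.900- to 1.14-fold. The ratio of Apob to Mttp, taken within each liver and so independent of library scaling, was 4.14 to 4.33 in vehicle and 2.95 to 3.67 in Libramed at ZT12. At ZT0 it was 4.42 to 5.22 in vehicle and 4.06 to 4.41 in Libramed, so the Libramed livers were lower at both times, narrowly so at ZT0. P4hb encodes the protein disulfide isomerase that is the partner subunit of the transfer protein, and was singled out after its values were seen. It fell at ZT12 against ZT0 over both treatments by 0.21 on the log2 scale (adjusted p = 0.0150), and Libramed against vehicle gave -0.25 (adjusted p = 0.259).

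Apoa1, which encodes the main protein of high density lipoprotein, stood at 22834, 21894.5 and 23584 FPKM in vehicle and at 29915, 25809 and 32458 in Libramed at ZT0. At ZT12 it stood at 21722, 20223 and 23234 FPKM in vehicle and at 28840, 23384 and 23723 in Libramed. All Libramed livers were above all vehicle livers of the same time, by a wide gap at ZT0 and a narrow gap at ZT12. The log2 fold change was 0.36 at ZT0 (SE 0.138, 1.29-fold, limma adjusted p = 0.526) and 0.22 at ZT12 (SE 0.131, adjusted p = 0.756). Over both times it was 0.29 (SE 0.0822, 1.22-fold, limma adjusted p = 0.336). The exact two-sided permutation test within times gave p = 0.005, the smallest that 400 arrangements allow. That p follows from the absence of overlap at both times and is not adjusted for the number of genes. Without Libramed ZT12 replicate 1 the value was 0.25, and without Libramed ZT0 replicate 3, where Apoa1 was highest, it was 0.25. With quantile normalisation it was 0.11.

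Apoa2, the second protein of high density lipoprotein, ranged from 21697 to 32160 FPKM and overlapped in every comparison. Its group means were 25436 ± 3834 FPKM in vehicle at ZT0, 29326 ± 1193 in vehicle at ZT12, 28249 ± 2798 in Libramed at ZT0 and 29355 ± 2617 in Libramed at ZT12 (SD, n = 3). Libramed against vehicle over both times was 1.06-fold, with an interval of 0.923 to 1.21. The ratio of Apoa1 to Apoa2 within a liver separated all 4 pairs of groups. It was 0.778 to 1.01 in vehicle and 1.02 to 1.05 in Libramed at ZT0, and 0.716 to 0.759 in vehicle and 0.820 to 0.897 in Libramed at ZT12. The ratio was therefore higher with Libramed at either time and lower at ZT12 under either treatment. The ratio of Apoa1 to Apob also separated the treatments, at 66.6 to 86.2 against 94.3 to 130 at ZT0 and 71.7 to 81.5 against 98.5 to 135 at ZT12, and overlapped between times. These ratios were chosen after the values were seen and are given as a description.

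**Figure D4:**
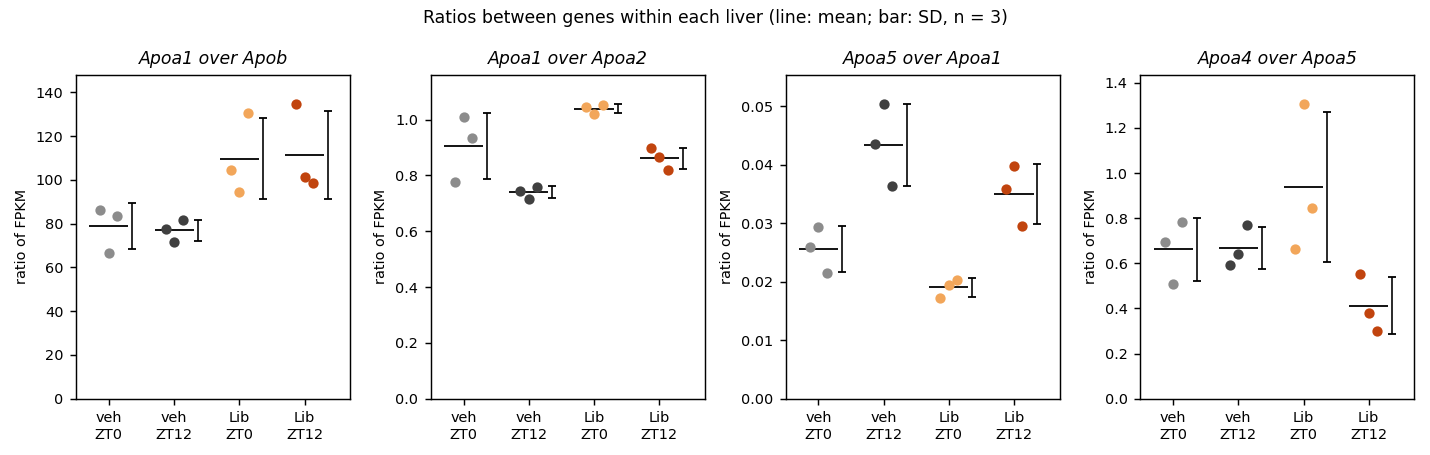
Ratio of the FPKM of a pair of genes within each liver (vertical axis, from 0), with 1 point per mouse, a line at the mean and a bar of 1 SD (n = 3). Apoa1 over Apob separates Libramed from vehicle at both times, and Apoa5 over Apoa1 separates ZT12 from ZT0 in both treatments, as Apoa5 does by itself. The pairs were chosen after the values were seen.

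Apoa5, whose product promotes the clearance of triglyceride-rich particles and is made almost only in liver, gave the clearest difference of the 10 genes. In vehicle it stood at 591, 641 and 505 FPKM at ZT0 and at 945, 1017 and 843 at ZT12. In Libramed it stood at 516, 501 and 660 FPKM at ZT0 and at 1033, 929 and 701 at ZT12. The times did not overlap in either treatment, though the highest Libramed liver at ZT0 came close to the lowest at ZT12. In vehicle the rise was 1.62-fold (log2 0.69, SE 0.123, limma adjusted p = 0.0199). In Libramed the difference was 1.58-fold (log2 0.66, SE 0.172, limma adjusted p = 0.0502), just outside the threshold. Over both treatments Apoa5 rose 1.60-fold (95% interval 1.36 to 1.88, SE 0.107 on the log2 scale, limma adjusted p = 0.000663), being higher in all 6 livers at ZT12 than in the ZT0 livers of the same treatment. The exact two-sided permutation test within treatments gave an unadjusted p = 0.005, the smallest possible, which follows from the absence of overlap in both treatments.

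The time difference of Apoa5 was nearly the same under both treatments, with an interaction of -0.03 (95% interval -0.52 to 0.46). Libramed against vehicle gave 0.951-fold over both times (interval 0.809 to 1.12), and that range bounds what 3 mice per group can show. Leaving out vehicle ZT0 replicate 3 or any of the vehicle ZT12 livers took the adjusted p of the rise in vehicle above 0.05 (0.0505 to 0.0880), while its log2 value stayed between 0.60 and 0.76. With no minimum FPKM (adjusted p = 0.0587), quantile normalisation (0.0564, log2 0.54) and the Cyber-T style test (0.112) it also missed the threshold. The rise over both treatments passed without any single liver. Nearest to Apoa5 over the 12 livers, by the root mean square difference of standardised profiles, were Nr1h4 (0.377), Mapre2 (0.379) and Uvrag (0.384). Nr1h4 encodes the bile acid receptor FXR, and rose 0.49 on the log2 scale in vehicle (adjusted p = 0.0246) and 0.57 in Libramed (adjusted p = 0.0188).

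Apoa4, which encodes an apolipoprotein made in gut and liver that is secreted with triglyceride-rich particles, varied most of the 10 genes, with an SD of 0.51 on the log2 scale over the 12 livers. Apoa5 followed at 0.40, and the other 8 lay between 0.14 and 0.21, beside a median of 0.17 over all genes tested. In vehicle Apoa4 stood at 410, 327 and 396 FPKM at ZT0 and at 560, 651 and 650 at ZT12, without overlap. In Libramed it stood at 341, 655 and 558 FPKM at ZT0 and at 569, 355 and 212 at ZT12, with wide overlap and the lowest value of all 12 livers at ZT12. The rise in vehicle was 1.64-fold (log2 0.72, SE 0.121, limma adjusted p = 0.0167). Without vehicle ZT0 replicate 3, vehicle ZT12 replicate 2 or vehicle ZT12 replicate 3 the log2 value was 0.75, 0.68 and 0.68, with an adjusted p of 0.0601, 0.0769 and 0.0701. It also missed the threshold, at the same size, in the fit of all 12 samples (adjusted p = 0.146), with the replicate block (0.0715), with the Cyber-T style test (0.0606) and with no minimum FPKM (0.0520).

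In Libramed the ZT12 mean of Apoa4 was 378 ± 180 FPKM against 518 ± 160 at ZT0, a log2 difference of -0.51 (SE 0.379, limma adjusted p = 0.424). The difference between the time effects, the interaction, was -1.23 (SE 0.441, limma adjusted p = 0.663, exact permutation p = 0.05 with treatment labels exchanged within times). None of the 10 genes and 0% of all genes passed the adjusted threshold there. Apoa4 was the only 1 of the 10 with an unadjusted p under 0.05, against 6.63% of all genes. Libramed against vehicle at ZT12 gave 0.566-fold (log2 -0.82, limma adjusted p = 0.729), with overlap, since Libramed ZT12 replicate 1 lay above the lowest vehicle liver. Nearest to Apoa4 in profile were Hsbp1l1 (0.504), Rnf41 (0.504) and Hacl1 (0.560), farther than the neighbours of Apoa5.

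Because Apoa4 is also an intestinal gene, markers of intestinal epithelium were examined. Of the 10 listed, 9 were in the table and only Fabp2 reached a mean of 1 FPKM, at 105 to 165 in single livers. Fabp6, Cdx1, Sis and Krt20 were listed at 0 in all 12. The summed marker level was 115 to 156 FPKM in vehicle and 133 to 165 in Libramed at ZT0, and 143 to 148 in vehicle and 105 to 139 in Libramed at ZT12, so it followed Fabp2. Its part in the values of Apoa4 was not tested.

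Apoc1 and Apoc3, whose products slow the clearance of triglyceride-rich particles, did not pass in any comparison. Apoc1 ranged from 23974 to 37265 FPKM and Apoc3 from 7354 to 12646, with both maxima in Libramed ZT12 replicate 1. Over both times Libramed against vehicle was 1.12-fold for Apoc1 (interval 0.985 to 1.27) and 1.11-fold for Apoc3 (interval 0.930 to 1.32). Without that liver the log2 value went from 0.16 to 0.11 for Apoc1 and from 0.15 to 0.06 for Apoc3, and at ZT12 from 0.22 to 0.12 and from 0.29 to 0.13. Quantile normalisation turned the value over both times of Apoc1 to -0.09. The line shared by Apoc2, the cofactor of lipoprotein lipase, and Apoc4 ranged from 3219 to 4341 FPKM, the narrowest relative range of the 10 (1.35-fold). Its group means lay between 3498 ± 130 FPKM in vehicle at ZT12 and 3875 ± 410 in Libramed at ZT12 (SD, n = 3). Time of day over both treatments gave 0.982-fold for this line (interval 0.870 to 1.11) and 1.03-fold for Apoc3 (interval 0.866 to 1.23).

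Apoe, the ligand for remnant uptake and the highest gene of the table, stood at 25937, 25394 and 27318 FPKM in vehicle and at 29954, 27929.5 and 32213 in Libramed at ZT0. At ZT12 it stood at 28924.5, 30450 and 31073 FPKM in vehicle and at 38283, 30374 and 34682 in Libramed. The treatments did not overlap at ZT0 and did at ZT12, and the times did not overlap in vehicle. Libramed against vehicle over both times was 1.14-fold (log2 0.19, SE 0.0707, limma adjusted p = 0.417), and the exact two-sided permutation test within times gave an unadjusted p = 0.02. Without Libramed ZT12 replicate 1 the value was 0.16, and with quantile normalisation 0.03. Time of day over both treatments gave 1.15-fold (log2 0.20, SE 0.0707, limma adjusted p = 0.0527, unadjusted exact permutation p = 0.015). Its limma adjusted p was just outside the threshold, and the log2 value was 0.03 with quantile normalisation.

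Macrophages also express Apoe and Apoc1, and in bulk tissue fewer cells of a type and less RNA per cell cannot be told apart. All 10 Kupffer cell markers were in the table and 7 reached a mean of 1 FPKM. Their summed level was 57.9 to 68.0 FPKM in vehicle and 32.7 to 53.6 in Libramed at ZT0, and 30.1 to 78.4 in vehicle and 37.6 to 56.9 in Libramed at ZT12. At ZT0, where Apoe was higher with Libramed, all 7 markers tested were lower with Libramed (median -0.48 on the log2 scale, 5 with an unadjusted p under 0.05, 0 adjusted). Over all genes at ZT0, 9.23% had such an unadjusted p and 45.0% were higher with Libramed. The summed level of the 8 hepatocyte markers, all well expressed, was 25782 to 27608 FPKM in vehicle and 30746 to 36055 in Libramed at ZT0. At ZT12 it was 33989 to 36429 in vehicle and 35906 to 43163 in Libramed, and thus moved in the direction of Apoe with both factors. Fabp1 was its largest part in every group (10665 to 24275 FPKM). The single markers were divided: 5 of 8 were higher and 3 lower with Libramed at ZT0, with Tat at -0.64, and 4 of 8 were higher and 4 lower at ZT12 in vehicle. The part of the Kupffer cell and hepatocyte markers in the values of Apoe and Apoa1 was not tested. Albumin was listed at 0 in all 12 livers and is not a usable hepatocyte marker in this table.

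Endothelial markers differed with time in the other direction. Of the 6 listed, 5 were tested and all 5 fell at ZT12 against ZT0 over both treatments, where 29.7% of all genes passed. The summed level was 26.5 to 42.4 FPKM at ZT0 and 13.5 to 23.1 at ZT12. Of the 6 stellate cell markers, 5 were tested and 4 fell, beside the same 29.7% of all genes. Adipocyte markers were low, with Lep and Retn listed at 0, and only Cfd was tested, at 0.309 to 42.8 FPKM. Cfd rose 3.55-fold at ZT12 over both treatments (adjusted p = 0.00857), and Libramed against vehicle over both times gave 0.337-fold (adjusted p = 0.336). Of the 8 exocrine pancreas markers 2 were tested, of which Cela1 fell at ZT12 over both treatments (log2 -0.57, adjusted p = 0.00731), and Cpa1, Cpb1, Prss2 and Amy2a5 were listed at 0, and of the erythroid markers only Alas2 had a line of its own. The part of these markers in the values of the 10 genes was not tested.

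The profiles of the 10 genes over the 12 livers were compared as a description, since they share libraries. The closest pair was Apoc1 and Apoe, neighbours on chromosome 7, at a root mean square difference of 0.430. Next came the Apoc2 line and Apoc3, on different chromosomes, at 0.475. Within the chromosome 9 cluster, Apoa5 and Apoa1 were among the most unlike pairs at 1.54, while Apoc1 and Apob, at 1.82, were the most unlike of all. Outside the 10 genes, the nearest profiles to Apoa1 were Ahsg (0.424), which encodes the secreted liver protein fetuin-A, Med4 (0.455) and 2310036O22Rik (0.456). For Apob they were Ascc3 (0.334), Tmem56 (0.340) and Ss18 (0.348), and for Apoe they were Proc (0.283), which encodes protein C, Uqcrb (0.392) and Ttc36 (0.397).

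The genes that flank the clusters were read in the same fits, where 29.7% of all genes passed for time over both treatments. Beyond Apoa5 on chromosome 9, Zpr1 begins 1145 bp away and Bud13 follows. Zpr1 rose in vehicle by a log2 fold change of 0.97 (adjusted p = 0.0146) and over both treatments by 0.78 (adjusted p = 0.00557). Bud13 rose by 0.86 in vehicle (adjusted p = 0.0225) and by 0.80 over both (adjusted p = 0.0120). In Libramed neither passed (0.60, adjusted p = 0.203, and 0.75, adjusted p = 0.217). On the Apoa1 side, Sik3 rose by 0.30 in vehicle (adjusted p = 0.0467) and by 0.24 over both treatments (adjusted p = 0.00487), while Pafah1b2 gave 0.02 over both. Between these flanks, Apoa4, next to Apoa5, gave 0.10 over both treatments, Apoc3 0.04 and Apoa1 -0.14. The value of Apoa4 pools a rise of 0.72 in vehicle (limma adjusted p = 0.0167) with -0.51 in Libramed (adjusted p = 0.424). On chromosome 7, Tomm40 (0.35, adjusted p = 0.00601) and Nectin2, listed under its older symbol Pvrl2 (0.53, adjusted p = 0.00778), rose over both treatments on the Apoe side, and Clptm1 (0.04) and Clasrp (0.02) on the Apoc2 side did not pass. None of these 8 genes passed in a treatment comparison.

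Among other genes of lipoprotein assembly and secretion, 19 of 20 listed were tested, and over both treatments 2 rose and 5 fell at ZT12, where 29.7% of all genes passed, with a median of 0.01. Ces1d, a carboxylesterase that mobilises stored triglyceride for secretion, rose most, from 168 ± 26.9 to 831 ± 138 FPKM in vehicle (log2 2.30, adjusted p = 0.00258) and from 221 ± 16.9 to 721 ± 99.7 in Libramed (1.70, adjusted p = 0.000959). Sar1b, the small GTPase of the vesicles that carry large lipid particles from the endoplasmic reticulum, rose by 0.29 over both treatments (adjusted p = 0.000865). Surf4, the cargo receptor of these particles, gave -0.33 (adjusted p = 0.000894) and thus fell, as did Tmem41b (-0.39, adjusted p = 0.00214), Pla2g12b (-0.36, adjusted p = 0.000102) and Sort1, a sorting receptor for apolipoprotein B (-0.37, adjusted p = 0.0228). The list therefore held members moving in both directions.

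In the same comparison, with 29.7% of all genes called, 2 of 9 tested remodelling genes rose and 2 fell. Lipg, endothelial lipase, rose by 1.46 (adjusted p = 0.000515), and the lipoprotein lipase inhibitor Angptl4 (1.25, adjusted p = 0.0250) also rose. Lpl, lipoprotein lipase, gave -0.67 (adjusted p = 0.000980) and its endothelial anchor Gpihbp1 -0.61 (adjusted p = 0.00238), so both fell, Lpl from low levels (1.62 ± 0.525 FPKM in vehicle at ZT0). Of 7 other apolipoprotein genes tested, 1 rose, Saa4 (0.73, adjusted p = 0.0273), and 1 fell, Apom (-0.49, adjusted p = 0.00825). Of 13 receptor and clearance genes, none rose and 2 fell, Stab2 (-0.42, adjusted p = 0.0136), itself an endothelial marker, and Mylip (-0.39, adjusted p = 0.0369), which encodes the ligase that degrades the LDL receptor.

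Of 23 regulators of apolipoprotein genes, 7 rose and 5 fell over both treatments, beside 29.7% of all genes called. Nr1d1, the clock repressor REV-ERBα, fell most, from 37.3 ± 17.9 to 8.55 ± 3.74 FPKM in vehicle (log2 -1.97, adjusted p = 0.0271) and from 47.4 ± 9.08 to 6.33 ± 1.43 in Libramed (-2.73, adjusted p = 0.000819). Nr0b2, the repressor SHP, gave -1.29 (adjusted p = 0.00463). Cebpb (1.12, adjusted p = 0.000401), Foxa3 (0.78, adjusted p = 0.000448) and Foxo1 (0.61, adjusted p = 0.000352) rose. Srebf1, a regulator of lipid synthesis, rose in Libramed (1.04, adjusted p = 0.0183), gave 0.32 in vehicle (adjusted p = 0.670), and had an interaction of 0.72 that did not pass (adjusted p = 0.849). In all 3 treatment comparisons and in the interaction, no gene of these 5 lists passed the adjusted threshold (limma). An unadjusted p under 0.05 was reached by 9 of the 71 list genes at ZT0 (12.7%, beside 9.23% of all genes), 7 at ZT12 (9.86%, beside 6.74%), 9 over both times (12.7%, beside 10.1%) and 6 in the interaction (8.45%, beside 6.63%), shares near those of all genes.

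**Figure D5:**
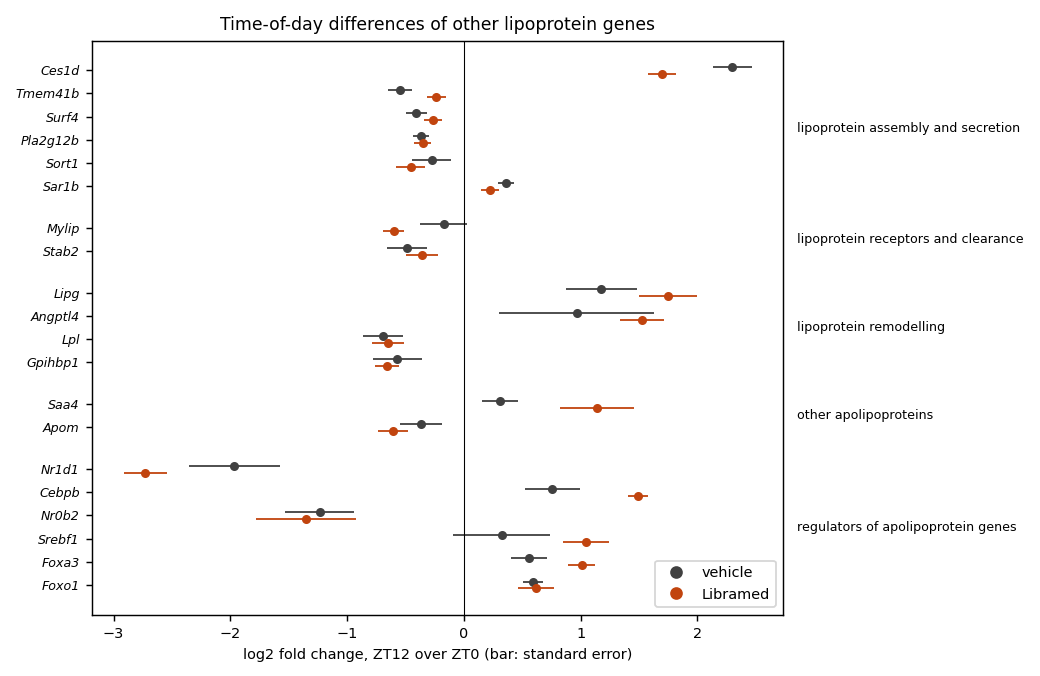
Log2 fold change of ZT12 over ZT0 (horizontal axis) for the named genes of the 5 lists, in vehicle (grey) and Libramed (red), with bars of 1 standard error (n = 3 per group). Ces1d lies farthest to the right (2.30 and 1.70) and Nr1d1 farthest to the left (-1.97 and -2.73), and the pairs of points lie on the same side of 0.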

How the data were processed

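Total RNA of 12 livers (4 groups of 3 mice) was sequenced as polyadenylated libraries. The deposited values were FPKM, made by the authors; the processing notes in the labels name TopHat, Cuffnorm and mm10, whereas the methods of the study name ELAND v2e with unique best matches and RPKM, and the labels and methods also name different library kits, so which route gave the table is not settled. No version of TopHat or Cuffnorm is given in the sources used here, nor any scaling between libraries. The table held 24138 lines, of which 289 repeated a symbol (only the highest of each by mean entered). Read depth is unknown, and relative depths read from the lowest values ran from 0.642 to 1.31. The precision rests on the 3 mice per group. With a library per mouse, the spread behind the p-values joins differences between mice and between libraries, and limma moderates it over all genes.

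Values were tested as log2(FPKM + 1) with limma 3.58.1 in R 4.3.3 (eBayes with trend, two-sided), for the 9806 genes whose mean reached 1 FPKM, with Benjamini-Hochberg adjustment over all of them and a threshold of 0.05. A fold change on this scale understates that of low genes. Each pair of groups was fitted alone. The interaction and the comparisons over both times or treatments used all 12 livers. Exact permutation tests reach no p below 0.1 for 3 against 3, and 0.005 within blocks. Their p-values were not adjusted for the number of genes or comparisons, and groups without overlap reach the smallest p by that alone. The fits were tested on data with known answers first.

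The genes and lists were chosen with earlier results of these data known. A gene of the remodelling list is not reported here and was left out of its counts. Named were all 10 genes, up to 6 called genes per list with the largest log2 fold change, the 3 nearest profiles of each gene with p under 0.05, and the 2 genes on each side of a cluster. The replicate numbers did not pair the samples (correlations of deviations between -0.28 and 0.34). Alternatives were another pseudocount, other filters, limma without trend, median-ratio and quantile scaling, a fit of all samples, a replicate block, a Cyber-T style test after the study's own method, and leaving out each liver. Coordinates are of GENCODE vM21 (mm10), and promoters of RefSeq.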

Additional observations from a re-analysis of the deposited data

Results flagged for a closer look

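Of the results reported, 1 was marked because an effect differed between groups at an unadjusted p. For Apoa4, the interaction of time and treatment was -1.23 on the log2 scale (limma p = 0.0173, adjusted p = 0.663), and an exact two-sided permutation test over 400 arrangements gave p = 0.05. That test exchanged treatment labels within each time, so it assumes no treatment effect at either time and does not test the interaction alone. All 3 vehicle livers at ZT12 were above all 3 at ZT0, whereas in Libramed the lowest value of the 12 livers was at ZT12. Leaving out each liver in turn gave an interaction between -1.58, without Libramed ZT12 replicate 1, and -0.87, without Libramed ZT12 replicate 3. It was 1 of 10 interactions computed, it failed the correction over all genes, and it passed under none of the 20 alternatives run, so a difference between the treatments was not shown. Groups of 3 are too small for a test of single outlying livers.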

How the results depend on the processing

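The counts of the 10 genes that passed depended on the processing for time of day and not for treatment: Libramed against vehicle at ZT0, at ZT12 and over both times, and the interaction, gave 0 of 10 under every alternative run. In vehicle, the 2 calls became 0 with no minimum FPKM and with the Cyber-T style test, and 1 with quantile normalisation, with the fit of all 12 samples and with the replicate block, and ran from 0 to 2 when each liver was left out. The 1 call left was Apoa5 under the block and under the fit of all samples, and Apoa4 with quantile normalisation. In Libramed, the count of 0 became 1, Apoa5, with a minimum of 5 FPKM, without trend and with the fit of all samples. It ran from 0 to 1 without single livers (1, again Apoa5, without Libramed ZT12 replicate 3). With quantile normalisation it became 2, a fall of Apoa1 and a rise of Apoc1 (limma adjusted p = 0.0102 for each), while Apoa5 missed the threshold there (adjusted p = 0.146). Over both treatments, the 1 call became 2, with Apoe added, with a minimum of 5 FPKM, without trend, with median-ratio scaling and with the replicate block. The count ran from 1 to 2 without single livers (2, again with Apoe, without Libramed ZT12 replicate 2). With quantile normalisation it also became 2, but the added call was a fall of Apoa1 (limma adjusted p = 0.0497), and Apoe did not pass (adjusted p = 0.742). Apoa5 passed over both treatments under every alternative, with adjusted p up to 0.0183 (Cyber-T style). The replicate block changed no other count of calls. Of the log2 fold changes of single genes, 597 of 620 kept their side of the threshold or stayed within the spread under other settings, and 591 of 600 did when a liver was left out, and no called value changed sign. Quantile normalisation gives the highest ranks the same values in every library, so values of Apoe, Apoc1, Apoa2 and Apoa1 there follow their rank alone. This shrank some of their differences and enlarged or turned others. For Libramed against vehicle, the log2 value of Apoe over both times went from 0.19 to 0.03, while that of Apoc1 at ZT0 went from 0.11 to -0.26. With 3 mice a group and unknown depth, the 95% intervals given beside the values limit what can be read from them.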
